A study of Mus musculus with 9 samples.

Results

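This account covers 8 mouse genes that encode ubiquitin or handle ubiquitinated proteins and have been linked to heat or protein damage: Ubb, Zfand2a, Zfand2b, Zfand5, Stub1, Vcp, Ubqln1 and Ubqln2. They were taken by symbol from the deposited expression table, where all 8 of 8 had a row, among 17559 genes with values. All 8 passed the filter on low values, among 11460 genes tested. The libraries came from primary peritubular myoid cells of C57BL/6J mice, the smooth-muscle-like cells that wrap the seminiferous tubules, grown at 37 °C in medium with serum. The control group was untreated. The heated groups spent 30 min in a 42 °C water bath and were harvested after 1 h or 6 h back in the incubator, and each of the 3 groups has 3 libraries. The comparison of heated with unheated cells is the study's question, per its title.

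Ubiquitin is a small protein that is joined to other proteins in chains, most often to send them to the proteasome. Cells make it from several genes, among them Ubb, which holds ubiquitin repeats in tandem, and Rps27a, which fuses it to a ribosomal protein. Ubb is a known stress gene: heat unfolds proteins, ubiquitin is drawn into chains, and the heat-shock factor HSF1 switches on chaperones together with some ubiquitin factors. Stub1 encodes CHIP, a ligase that marks clients held by HSP70 or HSP90. Vcp encodes the p97 ATPase, which pulls ubiquitinated proteins out of membranes and complexes. Ubiquilins carry ubiquitinated proteins to the proteasome, and the ZFAND proteins, with AN1-type zinc fingers, dock on p97 or on the proteasome.

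Depth was estimated at 18950000 to 20250000 reads per library. With that depth the members rested on an estimated 126 reads (Zfand2b, lowest library) to 42713 reads (Ubb, highest library), so counting error alone was at most 8.9%. The summed level over 8 contractile markers was 2763 to 4059 FPKM. Most of it came from Acta2 (991.59 to 1627.39 FPKM) and Tagln (1601.96 to 2231.16 FPKM). The other markers were lower. Myh11 (8.41 to 48.84 FPKM), Des (11.02 to 63.7), Cnn1 (18.38 to 119.39) and Actg2 (41.4 to 216.47) varied several-fold between libraries. Smtn (24.06 to 37.34 FPKM) and Lmod1 (33.89 to 65.01) varied less. Control replicate 3 stood apart by a summed level of 12 Sertoli cell markers of 3156 FPKM, against 301 to 584 FPKM elsewhere. Clu alone gave 2700 FPKM of that sum. Cldn11 (237 FPKM), Wt1 (53.8 FPKM) and Sox9 (27.7 FPKM) were also highest in this library, while Gata4, Inhbb and Krt18 were not. At 6 h the libraries differed in their heat response: Hsph1, an HSP110 chaperone, stood at 289, 15.9 and 110 FPKM in replicates 1, 2 and 3, against 18.6 to 23.1 FPKM in control. In bulk samples, a change in the mix of cells and a change of RNA per cell cannot be told apart.

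In unheated cells the members differed widely in level per transcript length (FPKM, fragments scaled to transcript length and library depth). Ubb was highest at 821 ± 154 FPKM (SD, n = 3), followed by Vcp at 258 ± 15, Stub1 at 61.4 ± 9.8, Ubqln1 at 43.9 ± 2.9, Ubqln2 at 24.8 ± 2.7, Zfand2a at 15.0 ± 1.8, Zfand5 at 11.4 ± 0.5 and Zfand2b at 8.35 ± 0.55 FPKM. No neighbours in this order overlapped between their 3 control libraries. At 1 h more of them overlapped. Zfand2a, at 44.6 ± 10.7 FPKM, then overlapped Stub1 and Ubqln1, and Zfand5, at 15.0 ± 1.9, overlapped Ubqln2.

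**Figure D1:**
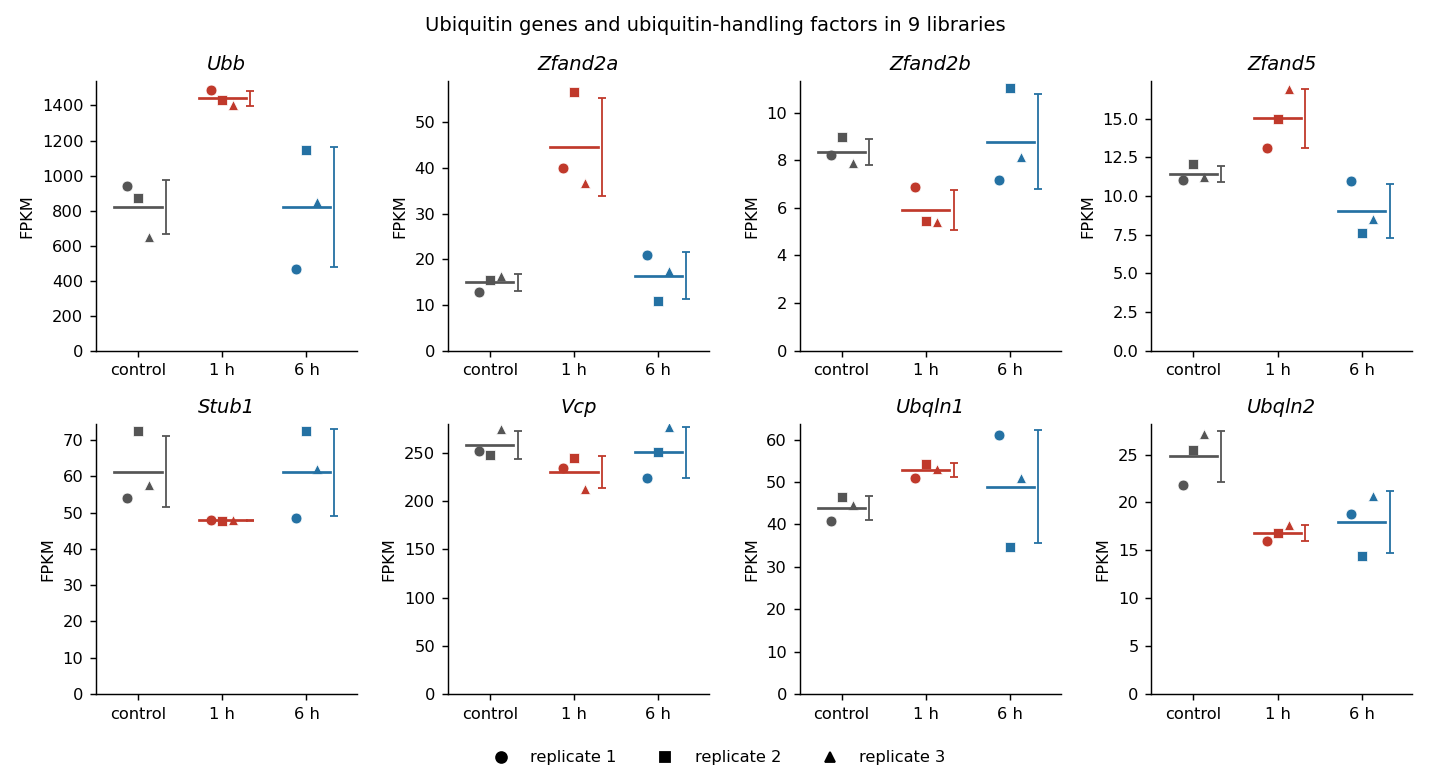
FPKM of each member (vertical axes, from 0) in control, 1 h and 6 h libraries. Points are single libraries, horizontal lines group means and bars 1 SD. At 1 h every library of Ubb, Zfand2a, Zfand5 and Ubqln1 lies above all controls, and every library of Zfand2b, Stub1, Vcp and Ubqln2 below them.

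One hour after heat, the libraries of all 8 members lay apart from the controls, 4 above them and 4 below. Among all genes tested 4.49% lay above and 21.4% below without overlap, 25.9% in all. None of the 8 passed the test over all genes in that comparison (limma, adjusted p below 0.05, 0 of 8 called), where 0.157% of genes were called, and 4 had an unadjusted p below 0.05, 2 higher and 2 lower, beside 10.8% of all genes (2.76% higher and 8.05% lower). The median log2 change was 0.05 over the members and -0.17 over all genes tested. Median-of-ratios scaling brought that median to -0.01, and with it 6 of 8 members kept libraries apart from the controls, 4 above and 2 below, beside 16.1% of all genes (9.11% above and 6.99% below). Stub1 and Vcp were the members that overlapped after scaling.

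**Figure D2:**
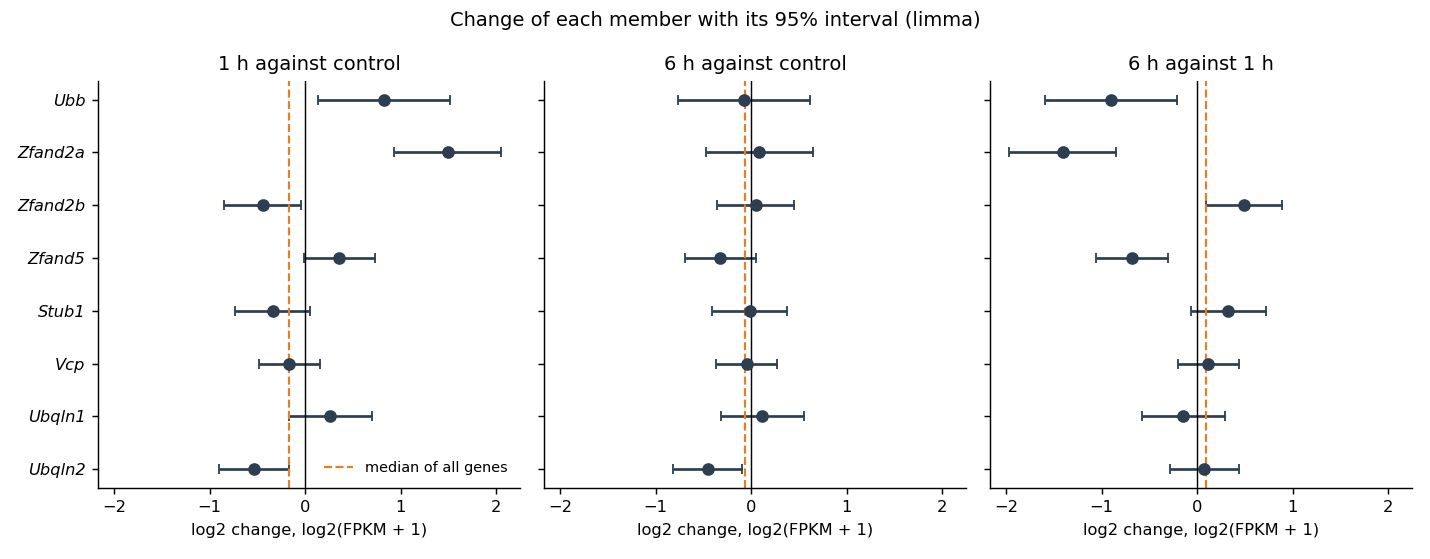
Log2 change of each member on the log2(FPKM + 1) scale in the 3 comparisons, with limma's 95% interval; the dashed line is the median of all genes tested. At 1 h Zfand2a and Ubb lie farthest to the right and Ubqln2 and Zfand2b farthest to the left.

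Among ubiquitin genes, Ubb (NCBI gene 22187, mm10 chromosome 11, 62551171 to 62553213, plus strand), which encodes ubiquitin as head-to-tail repeats, stood at 942, 874 and 648 FPKM in control replicates 1 to 3. It stood at 1489, 1430 and 1403 FPKM at 1 h. All 1 h libraries were high and close to each other, and the groups did not overlap. The mean was 1.75 times that of control, a log2 change of 0.83 (SE 0.31, 95% interval 0.13 to 1.52) with a limma adjusted p of 0.43. At 6 h Ubb was at 468, 1147 and 847 FPKM. Replicate 1 lay below every control and replicate 2 above every control, so the 6 h mean of 821 ± 341 FPKM describes libraries that differed. Against 1 h all 3 were lower, with a log2 change of -0.90 (SE 0.31) and a limma adjusted p of 0.32.

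Rps27a, which encodes ubiquitin fused to a protein of the small ribosomal subunit, was compared with it. Its level was 746, 878 and 467 FPKM in control, 717, 731 and 578 FPKM at 1 h and 663, 1167 and 882 FPKM at 6 h. The groups overlapped, and the log2 change at 1 h was -0.004 (SE 0.28, 95% interval -0.64 to 0.63, limma adjusted p = 0.995). The ratio of Ubb to Rps27a in FPKM was 0.995 to 1.39 in the control libraries, 1.96 to 2.43 at 1 h and 0.706 to 0.983 at 6 h. It was higher in each 1 h library than in any other. Both genes encode ubiquitin, and how reads of like sequence were divided between ubiquitin genes was not tested. At 6 h both genes were lowest in replicate 1 and highest in replicate 2. In control replicate 3, which stood apart by Sertoli markers, both had their lowest control value, and the part of other cells in this was not tested. Without that library Ubb's log2 change at 1 h was 0.67.

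Zfand2a had the largest change of the 8. It encodes AIRAP, an arsenite-inducible protein that associates with the proteasome, and is a known target of HSF1 (NCBI gene 100494, chromosome 5, 139471216 to 139484491, minus strand). Its level was 12.9, 15.6 and 16.4 FPKM in control and 40.1, 56.8 and 36.8 FPKM at 1 h. The 1 h libraries were the highest of all 9, and the lowest of them stood well above the highest control. The means differed 2.98-fold, with a log2 change of 1.49 (SE 0.25, 95% interval 0.94 to 2.05) and a limma adjusted p of 0.0746, above the threshold. It was the 26th gene of 11460 by p. Without 6 h replicate 1 the adjusted p was 0.047 and without 6 h replicate 2 it was 0.0195, both from a fit whose spread then omits that library. With only control and 1 h libraries it was 0.0278. With the replicate number as a block over all 9 libraries it was 0.192. At 6 h Zfand2a was at 21.1, 10.9 and 17.5 FPKM, overlapping control, and against 1 h its log2 change was -1.41 (SE 0.25, limma adjusted p = 0.0615). Without 6 h replicate 1 that adjusted p was 0.0244.

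Zfand2b, the paralog of Zfand2a, encodes AIRAPL, a membrane-anchored partner of p97 (NCBI gene 68818, chromosome 1, 75168646 to 75171626, plus strand). Control libraries held 8.21, 8.96 and 7.88 FPKM and 1 h libraries 6.86, 5.44 and 5.42. The 3 libraries at 1 h were the lowest of all 9. The log2 change was -0.44 (SE 0.18, 95% interval -0.84 to -0.04) with a limma adjusted p of 0.44. At 6 h it was at 7.17, 11.03 and 8.14 FPKM, on both sides of control.

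Zfand5, or ZNF216, binds ubiquitin and the proteasome and is known for its induction in wasting muscle (NCBI gene 22682, chromosome 19, 21272278 to 21286840, plus strand). It read 11.03, 12.04 and 11.21 FPKM in control, 13.1, 14.99 and 16.95 at 1 h and 10.98, 7.58 and 8.53 at 6 h. Every 1 h library was above the controls and every 6 h library below them, 6 h replicate 1 by a small margin. After median-of-ratios scaling the 6 h libraries overlapped control. The log2 change at 1 h was 0.36 (SE 0.17, limma adjusted p = 0.48), at 6 h -0.32 (adjusted p = 0.88) and from 1 h to 6 h -0.68 (SE 0.17, adjusted p = 0.16).

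The upstream sequences of the ZFAND members, Ubb and Vcp are shown because HSF1 binds repeats of the unit GAA and its complement TTC, and these members differed in their values at 1 h. Windows of 250 bases before the RefSeq start (GRCm38.p6) were searched for GAANNTTC or TTCNNGAA, pairs of adjoining units that read the same on both strands. Runs of 3 units, GAANNTTCNNGAA or TTCNNGAANNTTC, each the reverse complement of the other, contain such pairs and were counted also. The RefSeq table held 7 of the 8 members, all but Ubqln2. A pair lies in 12.8% of all 32851 windows and a run of 3 units in 0.466%. For the 17432 windows of genes with values the shares are 10.7% and 0.367%. Among members a pair was found for Zfand2a, Vcp and Stub1 and no run of 3. The Stub1 window lies wholly inside exons of GENCODE M21, counted for any gene on either strand, so it is not shown. Printed are the bases outside GENCODE exons, 5′ to 3′ along the gene, with the pair in capitals.
Zfand2a (chr5:139484550-139484741, minus strand): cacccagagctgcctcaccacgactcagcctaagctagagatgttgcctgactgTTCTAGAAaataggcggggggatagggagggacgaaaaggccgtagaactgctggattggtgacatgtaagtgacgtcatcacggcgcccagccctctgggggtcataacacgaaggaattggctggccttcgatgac
Zfand2b (chr1:75168396-75168645, plus strand): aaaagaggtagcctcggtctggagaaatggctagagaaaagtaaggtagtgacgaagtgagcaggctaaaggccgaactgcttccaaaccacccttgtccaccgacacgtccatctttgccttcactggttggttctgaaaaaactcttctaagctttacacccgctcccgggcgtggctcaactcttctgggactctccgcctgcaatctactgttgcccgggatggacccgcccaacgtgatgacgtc
Zfand5 (chr19:21272028-21272277, plus strand): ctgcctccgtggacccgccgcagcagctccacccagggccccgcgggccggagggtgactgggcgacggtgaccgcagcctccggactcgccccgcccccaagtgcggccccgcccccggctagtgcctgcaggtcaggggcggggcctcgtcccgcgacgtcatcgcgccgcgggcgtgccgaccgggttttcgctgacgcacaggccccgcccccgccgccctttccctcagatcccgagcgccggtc
Ubb (chr11:62551042-62551170, plus strand): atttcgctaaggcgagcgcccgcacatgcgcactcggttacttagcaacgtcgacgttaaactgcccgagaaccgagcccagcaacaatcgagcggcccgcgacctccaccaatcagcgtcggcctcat
Vcp (chr4:43000508-43000757, minus strand): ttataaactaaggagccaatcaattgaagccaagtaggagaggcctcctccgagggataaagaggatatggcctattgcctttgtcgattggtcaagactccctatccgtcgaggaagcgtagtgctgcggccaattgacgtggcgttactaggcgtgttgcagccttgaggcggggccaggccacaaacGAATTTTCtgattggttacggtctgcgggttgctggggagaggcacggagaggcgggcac

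The pair of Zfand2a, TTCTAGAA, lies 196 to 189 bases before the RefSeq start, and that of Vcp, GAATTTTC, lies 60 to 53 bases before it. The letters thus occur in the member with the largest change at 1 h and in Vcp, whose change was close to that of the median gene. They also occur in Stub1, which was lower at 1 h in the deposited values. The Stub1 window (25832920 to 25833169) lies inside the gene's deposited span (25830636 to 25833361). By those coordinates its match is not upstream of the gene. Among chaperones and co-chaperones with windows, Hspa1a, Hspa1b, Hsph1 and Dnaja1 held a pair in at least 1 window, and Dnajb1 and Bag3 in none. Ubb held no pair in either of its 2 RefSeq windows. A match or its absence here describes these letters in these windows only.

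Stub1, the gene of the ligase CHIP (NCBI gene 56424, chromosome 17, 25830636 to 25833361, minus strand), was at 54.1, 72.5 and 57.6 FPKM in control. At 1 h it was at 47.9, 47.8 and 48.1 FPKM. The 1 h libraries had an SD of 0.137 FPKM and lay below all controls, whose spread was 9.77 FPKM. The log2 change was -0.34 (SE 0.18, limma adjusted p = 0.50). At 6 h the libraries read 48.6, 72.7 and 62.0 FPKM. In GENCODE M21 42.3% of the exon bases of Stub1 are shared with Jmjd8 on the opposite strand, so without a known strand setting their reads cannot be told apart. For Jmjd8, named for this overlap, the control mean was 15.9 ± 2.4 FPKM (SD, n = 3) and the 1 h mean 18.2 ± 3.7 FPKM, with overlapping libraries.

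Vcp, the p97 ATPase (NCBI gene 269523, chromosome 4, 42979964 to 43000507, minus strand), had the smallest log2 change at 1 h. It read 252, 248 and 275 FPKM in control, 234, 245 and 212 at 1 h and 224, 251 and 277 at 6 h. The 1 h libraries were just below the controls. The log2 change of -0.16 (SE 0.14, 95% interval -0.49 to 0.16, limma adjusted p = 0.63) was close to the median of all genes and turned to 0.01 with median-of-ratios scaling. Its exons share 7.3% of their bases with 1700022I11Rik on the opposite strand, which was at most 0.04 FPKM in any library.

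Of the ubiquilins, Ubqln1, the widely expressed member (NCBI gene 56085, chromosome 13, 58176156 to 58215653, minus strand), was at 40.7, 46.3 and 44.6 FPKM in control and 51.0, 54.3 and 53.2 at 1 h, above all controls. Its log2 change was 0.26 (SE 0.19, limma adjusted p = 0.58). Ubqln2, an intronless relative linked to inherited motor neuron disease (NCBI gene 54609, chromosome X, 153498232 to 153501562, plus strand), was at 21.9, 25.5 and 27.1 FPKM in control and at 16.0, 16.8 and 17.6 at 1 h. All 1 h libraries were below all controls and close to each other. The log2 change was -0.53 (SE 0.16, 95% interval -0.90 to -0.17, limma adjusted p = 0.35).

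Ubqln2 was the member that stayed apart from control at 6 h in both the deposited values and after median-of-ratios scaling. It read 18.8, 14.4 and 20.7 FPKM, each below the lowest control. The log2 change was -0.46 (SE 0.16, 95% interval -0.82 to -0.09) with a limma adjusted p of 0.88. With Zfand5 it made 2 of 8 members below the controls without overlap, beside 5.32% of all genes (7.22% in either direction). After scaling Ubqln2 alone of the 8 lay below, beside 4.21% of all genes (7.18% in either direction). No member passed at 6 h against control (limma, 0 of 8; 0% of all genes called), and 1 of 8, Ubqln2, had an unadjusted p below 0.05, beside 4.62% of all genes (1.27% higher and 3.35% lower).

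Whether members of a family differed was tested on their ratio in each library, over all 1680 assignments of the 9 libraries to 3 groups (smallest possible p 0.00357, 2 ratios tested). Both ratios were chosen with earlier results of these data known. The p-values do not allow for that choice. The log2 ratio of Zfand2a to Zfand2b was 0.60, 0.73 and 0.97 in control, 2.39, 3.17 and 2.56 at 1 h and 1.43, -0.02 and 1.01 at 6 h. With all libraries exchanged freely the groups differed (exact permutation p = 0.0321, adjusted p = 0.0321). The 1 h mean exceeded the control mean by 1.94, and no 1 h library overlapped another group. The log2 ratio of Ubqln2 to Ubqln1 was -0.87, -0.84 and -0.70 in control, -1.61, -1.64 and -1.54 at 1 h and -1.65, -1.21 and -1.26 at 6 h. These groups also differed in that test (exact permutation p = 0.0143, adjusted p = 0.0286), and all 6 heated libraries lay below all controls. With libraries exchanged only within a replicate number, neither ratio passed: the exact permutation p was 0.0833 for Zfand2a to Zfand2b and 0.0556 for Ubqln2 to Ubqln1, adjusted p = 0.0833 for both, where 216 assignments allow 0.0278 at the smallest. Within the 3 pairs of control and 1 h, the first ratio was higher at 1 h by 1.79, 2.43 and 1.58 and the second differed by -0.75, -0.80 and -0.84, a design in which an exact two-sided permutation p cannot go below 0.25. The mean differed from that of control by -0.80 at 1 h and by -0.57 at 6 h. A ratio within a library does not depend on the scaling of that library beyond the added 1 FPKM. It shows unequal change and not which gene moved.

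**Figure D3:**
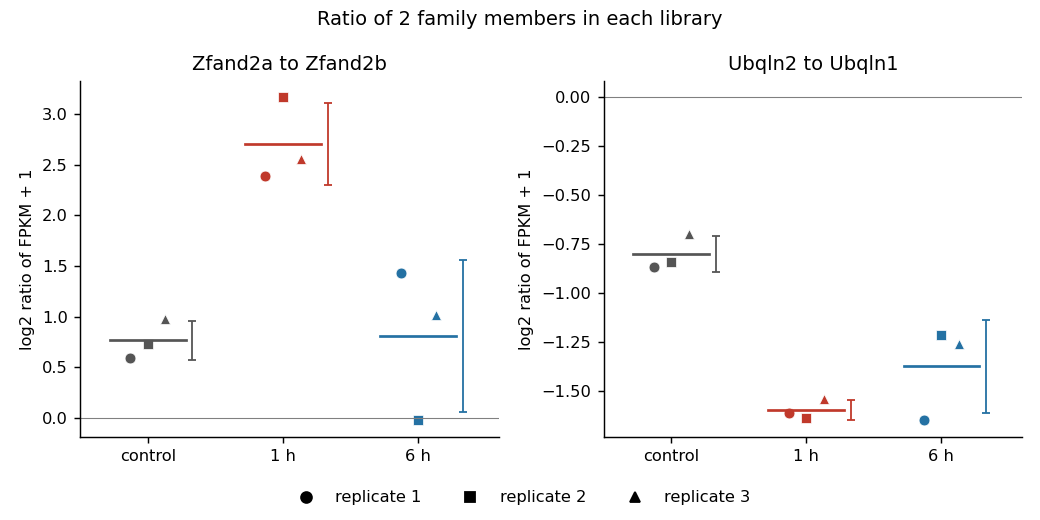
Log2 ratio of 2 family members (FPKM + 1) in each library, by group; points are libraries, lines means and bars 1 SD, and the vertical axes differ. The 1 h libraries of Zfand2a to Zfand2b stand above all others, and the heated libraries of Ubqln2 to Ubqln1 stand below all controls.

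From 1 h to 6 h, 3 of 8 members (Ubb, Zfand2a, Zfand5) were lower in every 6 h library than in every 1 h library, beside 4.97% of all genes, and 2 (Zfand2b, Stub1) were higher, beside 15.2% (20.2% in either direction). After median-of-ratios scaling the first 3 stayed apart, beside 9.16% of all genes lower and 18.1% in either direction, and the other 2 overlapped. No member was called (limma, 0 of 8; 0.279% of all genes), and 4 had an unadjusted p below 0.05 (Ubb, Zfand2a, Zfand2b, Zfand5), beside 11.6% of all genes (8.45% higher and 3.19% lower). This comparison uses the same 1 h libraries as the first. At 6 h the replicates were ordered alike for some members. Zfand2a and Ubqln1 were highest in replicate 1 and lowest in replicate 2, the order also of Hsph1. Ubb, Zfand2b and Stub1 had the reverse order, lowest in replicate 1 and highest in replicate 2. Without 6 h replicate 2 the Ubqln1 change from 1 h to 6 h turned from -0.15 to 0.08, and without 6 h replicate 1 Ubb's change against control turned from -0.08 to 0.28.

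The authors' deposited table gave all 8 members a q-value of at most 0.001 at 1 h, as it did 70.3% of the genes tested here. By the authors' deposited table Zfand2a, 1 member of 8, was also past 2-fold, with a log2 fold change of 1.57, beside 5.63% of genes. At 6 h against control the authors' deposited table had 5 of 8 members at that q-value and 0 past 2-fold, beside 55.6% and 4.01% of genes. For 6 h against 1 h the authors' deposited table had 7 of 8 members at that q-value, beside 63.9% of genes, and 1 past 2-fold (Zfand2a, log2 fold change -1.44), beside 3.46%.

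The rest of the ubiquitin pathway was described with 9 lists of 125 symbols, of which 124 had values and 122 were tested. At 1 h 5 were called higher and 0 lower over all genes tested (limma), beside 0.157% and 0% of all genes. All 5 belonged to the 17 chaperones and co-chaperones that work with CHIP. Hspa1a and Hspa1b, inducible HSP70 genes whose near-identical copies make the division of reads uncertain, rose by log2 changes of 7.14 and 6.47. Dnajb1, an HSP40, and Bag3, an HSP70 exchange factor, rose by 4.49 and 2.87 (limma adjusted p at most 1.51e-05 for these 4). Dnaja1, an HSP40 named after its values were seen, rose by 2.07 (limma adjusted p = 0.0105). Stub1, whose product works on the same chaperones, stood at 0.781 times its control mean. It was not called (limma adjusted p = 0.50), and its libraries overlapped control after median-of-ratios scaling.

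Outside the chaperones 0 of 105 pathway genes were called at 1 h, beside 0.157% of all genes, and 4 had an unadjusted p below 0.05, beside 10.8%. With calls that rare, 0 in a list of this size or smaller says little about the list. The median log2 change of the 105 was -0.16, close to that of all genes. Of the 105, 32 lay below and 3 above the controls without overlap, beside 21.4% and 4.49% of all genes. After median-of-ratios scaling, which removes the general shift, 3 lay below and 8 above, beside 6.99% and 9.11%. Conjugating E2 enzymes had a median of -0.16 (0 of 21 called), with Ube2d1 at -0.39. E3 ligases of protein quality control had a median of -0.21 (0 of 20), with March6, a ligase of the endoplasmic reticulum membrane, at -0.47. Cofactors of p97 had a median of -0.11 (0 of 21), with Ubxn8 at -0.29. Shuttle factors other than the members had a median of -0.24 (0 of 9), with Ubl4a, part of the BAG6 complex, at -0.44. The other ZFAND genes had a median of -0.11 (0 of 3), with Zfand6 at -0.14, and the activating E1 enzymes -0.10 (0 of 2), with Uba6 at -0.15. Deubiquitinases had a median of -0.20 (0 of 26). Uchl1, a neuronal and germ-line hydrolase, had the largest change there, from 24.8 ± 5.7 to 12.4 ± 6.2 FPKM, a log2 change of -1.05 (SE 0.40, limma adjusted p = 0.43). At 6 h against control 0 of 122 were called, beside 0% of all genes.

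**Figure D4:**
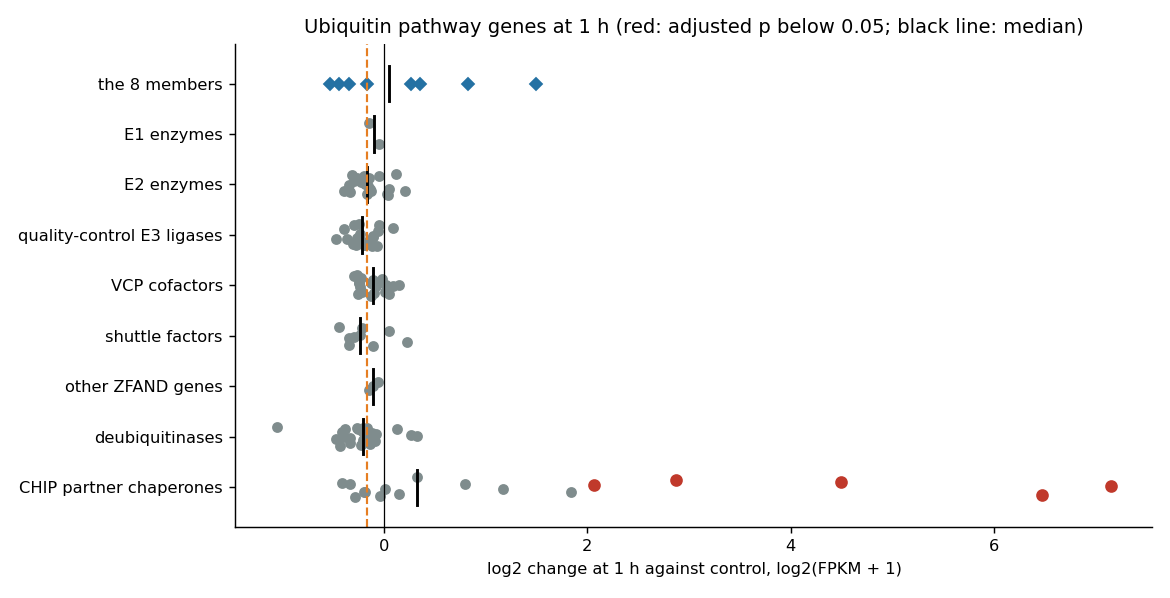
Log2 change at 1 h against control on the log2(FPKM + 1) scale for the 8 members (diamonds) and 8 lists of pathway genes (points), with each list's median as a black line and the median of all genes tested dashed. The 5 called genes (red) are all CHIP partner chaperones, and Zfand2a is the diamond farthest to the right, at 1.49.

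The genes most like Zfand2a over the 9 libraries, by Pearson correlation of log2(FPKM + 1), were Uspl1 (r = 0.985), Zfp623 (0.977), Tnfsf18 (0.961), Fbxo30 (0.961) and Spty2d1 (0.956). The 9 libraries fall into 3 groups, so r is a description with no test. Fbxo30, a ubiquitin ligase subunit, went from 7.85 to 8 FPKM in control to 29.6 to 37.7 FPKM at 1 h. Those most like Ubb were Mknk2 (0.94), Dennd2a (0.925), Hspa8 (0.905), Fhl2 (0.90) and Fam114a1 (0.896). Hspa8, the constitutive HSP70, stood at 1248 to 1665 FPKM in control and 2880 to 3722 FPKM at 1 h, a log2 change of 1.17 (SE 0.24, limma adjusted p = 0.14). At 6 h Hspa8 shared with Ubb the order of replicates, lowest in replicate 1 (1076 FPKM) and highest in replicate 2 (1767 FPKM). Hspa8 was named for its correlation with Ubb over these same libraries, so the shared order is no separate result.

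Markers of other cells were compared across groups by summed level. Over 8 macrophage markers it was 54.5 to 92.4 FPKM in control, 58.4 to 276 at 1 h and 45.0 to 281 at 6 h. Over 8 Leydig markers it was 910 to 2139, 872 to 2030 and 1400 to 2032 FPKM in the same order, with Cyp17a1 and Hsd17b3 at most 0.12 FPKM. Over 7 endothelial markers it was 39.4 to 88.6, 28.6 to 54.3 and 30.2 to 59.0 FPKM. For 8 germ cell markers it was at most 8.31 FPKM. For 2 red blood cell markers it was at most 0.27 FPKM outside control replicate 3 (7.08 FPKM). In that library Alas2 gave all 7.08 FPKM, and the haemoglobin gene Hba-a1 was at 0 FPKM. The part of these other cells in the members' values was not tested. Without control replicate 3 and 6 h replicate 2 together, the members kept the direction of their change at 1 h.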

How the data were processed

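RNA of 9 libraries was deposited as 1 table. Per the file headers its values are FPKM, made by the authors; the tools listed in the submitters' processing notes are RSEM 1.2.12, Bowtie2 2.2.5 and HISAT2 2.0.4, with the build mm10 and no roles. The table also holds the authors' log2 fold changes, p-values and q-values (DEGseq, per the file headers). The strand setting is not given in the sources used here. Because FPKM are relative, a few strongly induced transcripts can lower the values of others. Whether they did so here was not tested.

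A gene was tested where 3 or more libraries reached 1 FPKM, which left 11460 genes, tested with limma 3.58.1 (R 4.3.3) on log2(FPKM + 1), all 9 libraries in 1 fit with 6 residual degrees of freedom, variance trend, two-sided, Benjamini-Hochberg over all genes, called at an adjusted p below 0.05. The log2(FPKM + 1) scale understates changes of low genes. The fit was tested on simulated data. Ratios of paralogs were tested by exact permutation. Each member's changes were recomputed under 18 alternatives. The members, gene lists and tests were chosen with earlier results of these data known. Named beside the 8 members were the 5 genes most correlated with Zfand2a and with Ubb, and per pathway list up to 4 called genes or, with none, that of largest change at 1 h. Some genes of the ubiquitin lists are not reported here.

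The labels number the replicates without saying whether they were separate cultures or animals, so p-values measure only the spread between libraries, which may be technical. Deviations of same-numbered control and 1 h libraries from their group means correlated at 0.194, 0.149 and 0.262, all above 0.1, and these were taken as paired. For 6 h the same correlations with control ran from -0.178 to 0.041 and with 1 h from -0.35 to -0.104, so those numbers were not. Between control and 1 h, differently numbered libraries correlated at -0.284 to 0.171, and the highest exceeded the same-numbered 0.149. The cut of 0.1 thus does not establish a pairing, and the main limma fit had no replicate block. Depth was estimated from the smallest FPKM steps of transcripts of 400 to 1200 bp (length less 35 bp).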

Additional observations from a re-analysis of the deposited data

Results flagged for a closer look

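Zfand5 lay above all controls in every 1 h library and below all controls in every 6 h library, with a log2 change from 1 h to 6 h of -0.68. The margin at 6 h was small, 10.98 FPKM in replicate 1 against a lowest control of 11.03 FPKM. After median-of-ratios scaling the 6 h libraries overlapped control. Of all genes tested, 4.49% lay above the controls at 1 h and 5.32% below them at 6 h. The share of genes that did both was not computed. The change between the times was tested and did not pass (limma adjusted p = 0.16). Among the pathway genes, the response at 1 h and 6 h differed by a direct test for 5 chaperones, beside 0.279% of all genes. Their log2 changes from 1 h to 6 h were -5.27 for Hspa1a, -4.94 for Hspa1b, -4.58 for Dnajb1, -2.67 for Bag3 and -1.93 for Dnaja1 (the last named after its values were seen).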

How the results depend on the processing

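Each member's changes were recomputed under 18 alternatives. Zfand2a was called at 1 h in 5 of 18 (adjusted p 0.0195 to 0.371 over all 18) and from 1 h to 6 h in 4 of 18 (0.0244 to 0.325). No other member was called in any of them. The count of members called higher at 1 h, 0 as reported, was 1 with median-of-ratios scaling, quantile normalization or only the 2 groups compared, and 0 to 1 leaving out single libraries. The count called lower from 1 h to 6 h was 1 with a 5 FPKM filter, median-of-ratios scaling or quantile normalization, and 0 to 1 leaving out single libraries.

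Over all genes, calls higher at 1 h, 18 as reported, were 9 without a filter, 31 with quantile normalization, 46 with 2 groups only, and 8 (without 1 h replicate 2) to 45 (without 6 h replicate 2) leaving out single libraries. Calls lower at 1 h were 1 without a filter, with the 5 FPKM filter, with 2 groups only, or without control 3 and 6 h 2 together (an alternative chosen after seeing the data), and 0 to 7 leaving out single libraries. At 6 h against control, calls higher ranged from 0 to 25 (without 6 h replicate 1). From 1 h to 6 h, calls higher were 1 with pseudocount 0.1 or no filter, 3 with the 5 FPKM filter or no variance trend, 7 with quantile normalization, 5 without control 3 and 6 h 2, and 0 to 39 leaving out single libraries. Calls lower, 32 as reported, were 21 without a filter and 8 to 65 leaving out single libraries.

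Directions turned for small changes. With median-of-ratios scaling Vcp was at 0.0123 at 1 h, 0.0063 at 6 h against control and -0.006 from 1 h to 6 h, Stub1 at 0.0392 at 6 h against control, and Ubqln2 at -0.0407 from 1 h to 6 h (-0.0053 with quantile normalization). Without control 3 and 6 h 2, Zfand2b was at -0.1484 at 6 h against control and Ubqln1 at 0.0781 from 1 h to 6 h. Leaving out single libraries, the 6 h change against control ran from -0.365 to 0.2814 for Ubb, -0.1042 to 0.3437 for Zfand2a, -0.112 to 0.1671 for Zfand2b, -0.1455 to 0.1393 for Stub1, -0.1199 to 0.0301 for Vcp and -0.0586 to 0.3412 for Ubqln1. From 1 h to 6 h it ran from -0.3216 to 0.0781 for Ubqln1 and from -0.0274 to 0.2199 for Ubqln2. The causes were not tested.

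With the replicate block, the replicate number as a term for all 9 libraries, 0 members were called in any comparison, 15 genes were called higher at 1 h and 23 lower from 1 h to 6 h. The 6 h numbers were not taken as paired, so for 6 h this block only describes the numbers. The ratio tests lost their call with the replicate block (adjusted p = 0.0833 for both, changes at 1 h of 1.9364 and -0.7956 as before), an alternative added after seeing the data.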
